A study of Mus musculus with 16 samples.

Results

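Old microglia of 2 genotypes are compared here: 3 arrays of old LysM-Cre/SIRT1F/F mice (called old LysM-Cre below) and 3 arrays of old SIRT1F/F mice. These are 6 of the 16 arrays of the series, taken by genotype and age from its labels, and all 25697 probes of the array entered. The series is about the protein deacetylase SIRT1 in microglia with ageing and in a model of dementia, and its title names IL-1beta. The other 10 arrays are 3 of young LysM-Cre, 3 of young SIRT1F/F, 2 of TAU/LysM and 2 of TAU mice, and they are used only to estimate the spread and to set the genotype difference beside that in other samples.

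Both old groups carry Sirt1 alleles flanked by loxP sites. Old LysM-Cre mice also carry a Cre recombinase under control of the Lyz2 (lysozyme M) locus, which is active in microglia, other macrophages, monocytes and neutrophils. The labels give a background of BL6 and 129/Sv for both groups, and the age only as old. Brains were digested, myelin was depleted with antibody beads, and cells carrying CD11b were collected on beads. CD11b is the integrin encoded by Itgam and is carried by all of these myeloid cells, so the selection itself does not separate them. Nothing in the labels says that the 3 arrays of a group come from separate mice, so p-values cover only how far these samples scatter, and that scatter may be technical.

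SIRT1 is a deacetylase that uses NAD and acts on histones, p53, NF-kB and FOXO factors. Microglia, the macrophages that live in brain tissue, are recognised by homeostatic genes such as P2ry12, Tmem119 and Cx3cr1. With age and near degenerating neurons, microglia are known to raise interferon-stimulated and lipid-handling genes. Lyz1 and Lyz2 are neighbouring genes for the secreted antibacterial enzyme lysozyme: Lyz1 is best known from the Paneth cells of the gut and Lyz2 from macrophages.

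A level below is a log2 intensity after background correction and quantile normalization. A difference is old LysM-Cre minus old SIRT1F/F on that scale, with its standard error (SE). A probe was called where its limma adjusted p was under 0.05 over the 16344 probes tested. Values of 3 arrays are given in the order of replicates 1, 2 and 3.

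The labelled cell type was checked first. Cx3cr1, the fractalkine receptor, had levels of 14.81, 14.69 and 14.83 in old LysM-Cre, against 14.91, 15.03 and 15.24 in old SIRT1F/F. Tmem119 lay between 14.32 and 14.4 in old LysM-Cre, against 14.45 to 14.47 in old SIRT1F/F. P2ry12, a purinergic receptor, lay between 13.37 and 13.7 in old LysM-Cre, against 13.66 to 14.14 in old SIRT1F/F. Itgam lay between 9.75 and 10.65 in old LysM-Cre, against 10.31 to 10.46 in old SIRT1F/F. All 4 markers were above background on all 6 arrays. Neutrophil transcripts were bright as well: S100a8, a calcium-binding protein of neutrophils and monocytes, had levels of 15.28, 15.32 and 15.3 in old LysM-Cre, against 15.29, 15.35 and 15.22 in old SIRT1F/F. The cells this RNA came from were not tested, and in bulk samples fewer cells of a type and less RNA per cell cannot be told apart.

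Some arrays looked unlike the others, which is described here and was not tested. Across probes the arrays of a group correlated at 0.986 to 0.992 in old LysM-Cre and at 0.99 to 0.994 in old SIRT1F/F. On the first principal component of the 6 arrays, with 34.2% of the variance, old LysM-Cre 3 lay at -31.2 and the other 5 between -2.88 and 16.6. Xist, the RNA that coats the inactive X chromosome of females, had levels of 10.55, 10.21 and 11.1 in old LysM-Cre, against 11.01, 6.32 and 6.08 in old SIRT1F/F. The Y-linked gene Eif2s3y had levels of 11.04, 10.64 and 9.67 in old LysM-Cre, against 9.99, 11.39 and 11.47 in old SIRT1F/F. So 4 arrays carried both transcripts, while old SIRT1F/F 2 and 3 carried Eif2s3y with Xist near background. Old SIRT1F/F 2 and 3 were also the 2 arrays with the most haemoglobin RNA: Hba-a1 (alpha globin) had levels of 11.34, 11.4 and 11.24 in old LysM-Cre, against 11.35, 13.26 and 13.03 in old SIRT1F/F. The Xist difference was 2.82 ± 1.33 (SE, limma adjusted p = 0.757) and the Hba-a1 difference -1.22 ± 1.01 (adjusted p = 0.868). The main results are therefore also given without old SIRT1F/F 2 and 3.

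Of the 16344 probes, 3 were called higher in old LysM-Cre (0.0184%) and 0 were called lower (0%). Both genotypes were close: the median absolute difference was 0.111, and 17 probes differed by more than 1 log2 unit, 11 of them higher and 6 lower. At an unadjusted limma p under 0.05 there were 589 probes higher (3.6%) and 489 lower (2.99%). The 3 old LysM-Cre arrays all lay above the 3 old SIRT1F/F arrays for 1058 probes (6.47%) and all below for 991 (6.06%). With 1 probe per gene, as in the gene lists below, 437 of 10986 genes were higher and 294 lower at an unadjusted p under 0.05. Of these 10986 genes, 797 had all old LysM-Cre arrays above and 643 had all of them below. These shares are the background for the counts in gene lists below.

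**Figure D1:**
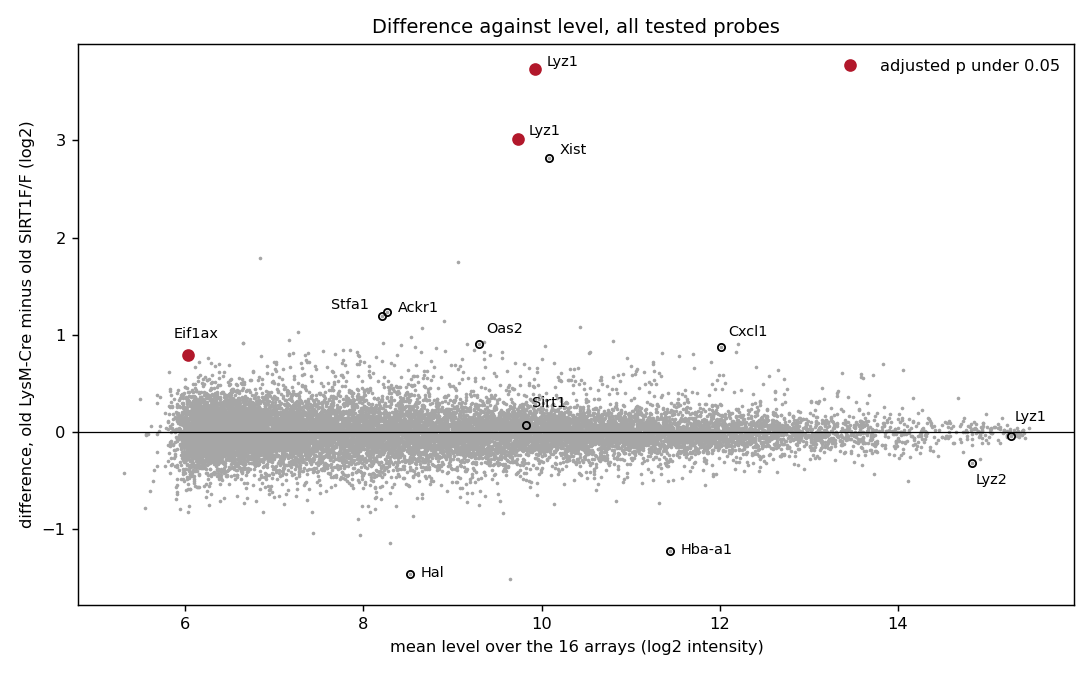
Difference between old LysM-Cre and old SIRT1F/F (y axis, log2) against the mean level over the 16 arrays (x axis, log2 intensity), 1 point for each of the 16344 tested probes. The 3 called probes, 2 for Lyz1 and 1 for Eif1ax, are filled, and other genes described in the text are circled. Most probes lie near 0, Lyz1 stands above all others, and Lyz2 lies below 0 among the brightest probes.

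Lyz1 rose, on 2 of its 3 probes. Probe ILMN_2736867 had levels of 10.88, 11.37 and 11.24 in old LysM-Cre, against 7.1, 7.43 and 7.76 in old SIRT1F/F. In the deposited intensities this is 2157, 2564 and 2646, against 250, 262 and 378. The difference was 3.73 ± 0.37 (SE), or 13.3-fold, with a limma adjusted p of 0.00164. The groups were far apart on this probe and on the next. Probe ILMN_1247933 had levels of 10.44, 11.13 and 10.52 in old LysM-Cre, against 7.62, 7.63 and 7.79 in old SIRT1F/F, a difference of 3.02 ± 0.32 (SE, limma adjusted p = 0.00179). With old SIRT1F/F 1 as the only array of its group the differences were 4.06 and 3.08 and neither was called (adjusted p = 0.088 and 0.208). The third Lyz1 probe, ILMN_2878071, behaved otherwise. Its levels were 15.27, 15.17 and 15.27 in old LysM-Cre, against 15.25, 15.29 and 15.29 in old SIRT1F/F, a difference of -0.04 ± 0.07 (adjusted p = 0.945). That probe had intensities of 36401 to 42067 on the 6 arrays, near those of the brightest probe of an array (42456 to 49041). Whether differences are compressed at such intensities was not tested. The sequences of the probes were not used here, so whether each reads Lyz1 alone or also its close copy Lyz2 was not tested.

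Lyz2, whose locus carries the Cre, was not called. Its brightest probe had levels of 14.73, 14.56 and 14.54 in old LysM-Cre, against 15.01, 14.89 and 14.86 in old SIRT1F/F. The groups did not overlap, and the difference was -0.31 ± 0.10 (SE, limma adjusted p = 0.736). The other Lyz2 probes gave -0.23 ± 0.11 (adjusted p = 0.755), without overlap, and -0.27 ± 0.24 (adjusted p = 0.875), with overlap.

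The Lyz1 and Lyz2 genes lie next to each other on chromosome 10, and their promoters are shown because the Lyz2 promoter drives the Cre while the neighbouring gene carried the largest difference. Each sequence runs from 250 bases before to 50 bases after the start of the gene (RefSeq, GRCm38.p6, minus strand), and capitals mark the bases that differ from, or have no partner in, the other promoter in a pairwise alignment. The positions are chr10:117292819-117293118 for Lyz1 and chr10:117282223-117282522 for Lyz2.
Lyz1: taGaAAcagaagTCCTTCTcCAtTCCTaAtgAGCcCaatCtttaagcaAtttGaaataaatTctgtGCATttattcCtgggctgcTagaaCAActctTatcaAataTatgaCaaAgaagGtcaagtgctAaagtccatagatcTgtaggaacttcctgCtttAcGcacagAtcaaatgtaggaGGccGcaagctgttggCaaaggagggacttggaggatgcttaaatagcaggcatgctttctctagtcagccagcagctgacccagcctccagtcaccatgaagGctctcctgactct
Lyz2: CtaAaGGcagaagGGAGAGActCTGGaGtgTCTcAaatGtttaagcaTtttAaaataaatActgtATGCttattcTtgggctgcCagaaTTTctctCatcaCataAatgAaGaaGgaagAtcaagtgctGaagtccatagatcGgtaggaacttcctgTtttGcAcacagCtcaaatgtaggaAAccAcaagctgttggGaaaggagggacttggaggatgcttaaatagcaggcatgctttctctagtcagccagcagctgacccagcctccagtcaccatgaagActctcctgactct
Of 298 aligned positions 249 were identical (83.6%), and in the stretch from 100 bases before to 50 after the start of Lyz1 141 of 150 were.

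Other genes around the 2 engineered loci, Lyz2 and Sirt1, were compared next. Among the 10 protein-coding genes on each side of Lyz2, leaving out Lyz1, 11 genes had 25 tested probes. Of these probes 2 reached an unadjusted limma p under 0.05, both higher, with a median difference of 0.05 over all 25. They belonged to Kcnmb4, a potassium channel subunit, with a difference of 0.32 ± 0.13 (SE), and to Mdm1, a centriole protein, with 0.35 ± 0.11 on 1 of its 6 probes. Among the 10 genes on each side of Sirt1, on the same chromosome, 11 genes had 14 tested probes. Of these 2 reached an unadjusted p under 0.05, both lower: Reep3, a shaper of the endoplasmic reticulum, at -0.46 ± 0.15 and Slc25a16, a mitochondrial carrier, at -0.23 ± 0.08. Of the probes beside the 2 loci 0 were called (limma adjusted p = 0.736 for each of these 4).

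Eif1ax was the other gene called. It encodes translation initiation factor eIF1A and lies on the X chromosome. Its levels were 6.37, 6.55 and 6.37 in old LysM-Cre, against 5.75, 5.53 and 5.62 in old SIRT1F/F, a difference of 0.80 ± 0.11 (SE, limma adjusted p = 0.0345). The groups did not overlap, but no old SIRT1F/F array was well above background for this probe, so the change is given as at least 1.07-fold (brighter group against the higher of the probe's own signal and the lowest signal above background). Only arrays with Cre were above background for this probe, namely the 3 old LysM-Cre arrays and TAU/LysM 2. It thus entered the test through the group where it was high, and the call adds no support. It was called in 4 of 20 alternative settings, and in none of those that left out 1 array (adjusted p = 0.0652 to 0.345). The stricter filter, among the 4, also admits it through old LysM-Cre, and with no filter it was not called (limma adjusted p = 0.0808).

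Sirt1 itself did not pass the test. Its levels were 9.97, 9.61 and 9.77 in old LysM-Cre, against 9.69, 9.6 and 9.86 in old SIRT1F/F. The groups overlapped, and the difference was 0.07 ± 0.12 (SE, limma adjusted p = 0.945). Where the probe lies in the transcript was not analysed here, so its level is no check of the deletion. Among the 6 sirtuins tested, 3 differences were positive and 3 negative, with a median of 0.00 and 0 at an unadjusted p under 0.05. Sirt2, a mostly cytoplasmic tubulin deacetylase, had a difference of -0.12 ± 0.09 and Sirt5, a mitochondrial desuccinylase, -0.07 ± 0.12.

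Il1b, which encodes IL-1beta and is named in the series' title, was bright in every sample. Its levels were 15.05, 14.88 and 15.06 in old LysM-Cre, against 14.9, 14.86 and 14.91 in old SIRT1F/F. The groups overlapped, and the difference was 0.11 ± 0.09 (SE, limma adjusted p = 0.869). Its intensities of 25878 to 34717 were high but below those of the third Lyz1 probe, and whether a difference is compressed there was not tested. Mapt, which encodes tau, lay near background, and its 3 probes gave differences of -0.20 ± 0.20, -0.20 ± 0.18 and 0.04 ± 0.21.

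**Figure D2:**
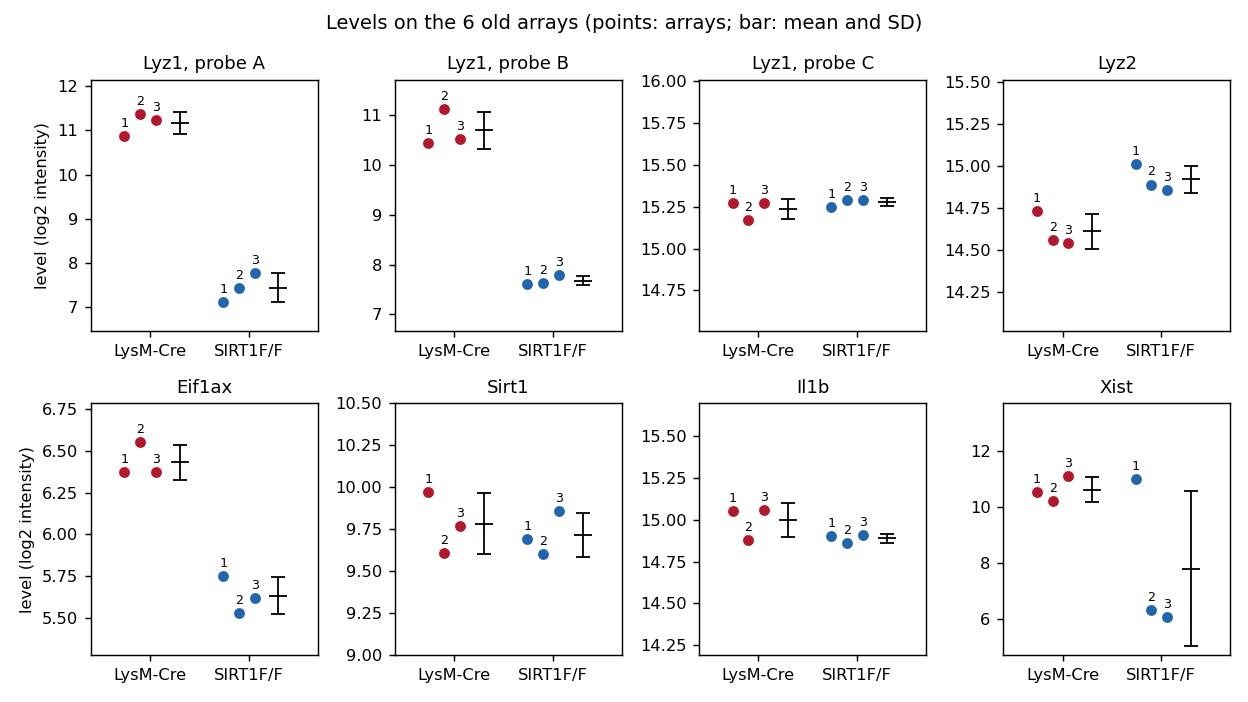
Levels (y axes, log2 intensity, each panel on its own scale) of 8 probes on the 3 old LysM-Cre arrays, left, and the 3 old SIRT1F/F arrays, right. Numbered points are arrays by replicate, and the bars give the mean and SD of a group. Lyz1 probes A (ILMN_2736867) and B (ILMN_1247933) and Eif1ax separate the genotypes upward and Lyz2 downward, Lyz1 probe C, Sirt1 and Il1b overlap, and Xist is low on old SIRT1F/F 2 and 3.

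Past the called probes, the genes of smallest p were mostly small differences with little spread, and none of them passed the test. Of the 12 genes of smallest p with a positive difference, the 10 beyond Lyz1 and Eif1ax had differences of 0.41 to 0.81 and adjusted p of 0.546 to 0.592. All 12 had no overlap between the groups, which choosing genes by smallest p favours, so it adds no support. Ffar2, a receptor for short-chain fatty acids on myeloid cells, had levels of 8.45, 8.06 and 8.21 in old LysM-Cre, against 7.42, 7.54 and 7.34 in old SIRT1F/F, a difference of 0.81 ± 0.18. F10, coagulation factor X, had levels of 7.43, 7.69 and 7.51 in old LysM-Cre, against 6.63, 6.86 and 6.8 in old SIRT1F/F, a difference of 0.78 ± 0.16. Every old LysM-Cre array lay above every old SIRT1F/F array for both genes. Ccl24, a chemokine for eosinophils, had levels of 9.81, 9.61 and 9.64 in old LysM-Cre, against 9.34, 8.99 and 8.99 in old SIRT1F/F, a difference of 0.58 ± 0.13. Plk2, a stress-responsive kinase, had levels of 9.94, 9.84 and 9.92 in old LysM-Cre, against 9.33, 9.46 and 9.35 in old SIRT1F/F, a difference of 0.52 ± 0.12. The other 6 were Igsf9 (0.54), Tbx6 (0.54), a T-box transcription factor, Gm5113 (0.53), the retinol dehydrogenase gene Rdh19 (0.49), Igf2r (0.48), the receptor for insulin-like growth factor 2 and mannose 6-phosphate, and Lrrfip1 (0.41), a nucleic acid-binding protein. Gm5113 was above background on 1 of the 3 old LysM-Cre arrays and on 0 of the 3 old SIRT1F/F arrays.

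The 12 genes of smallest p with a negative difference had adjusted p of 0.281 to 0.592. None of them overlapped between the groups, which the same way of choosing favours. Tceal1, a small nuclear protein encoded on the X chromosome, came nearest to the threshold: its levels were 9.78, 9.66 and 9.7 in old LysM-Cre, against 10.18, 10.2 and 10.33 in old SIRT1F/F, a difference of -0.52 ± 0.09 (SE, limma adjusted p = 0.281). Hal, histidine ammonia-lyase, had the largest difference of these. Its levels were 7.74, 6.14 and 7.73 in old LysM-Cre, against 8.69, 8.38 and 8.92 in old SIRT1F/F, a difference of -1.46 ± 0.33, with old LysM-Cre 2 farthest down. The hormone gene Lep (leptin) had a difference of -0.71 ± 0.17, Ankrd1, a muscle ankyrin repeat protein, -0.68 ± 0.17, and Hrh2, the histamine H2 receptor, -0.44 ± 0.10. Cdc5l, a splicing factor, and the imprinted gene Mest were above background on 0 old LysM-Cre arrays and on all 3 old SIRT1F/F arrays, and were at least 1.14-fold and 1.18-fold brighter in old SIRT1F/F. Btbd9 (-0.47), Dnajc24 (-0.41), Cep112 (-0.39), Ice2 (-0.38) and BC052040 (-0.35) completed the 12.

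By size rather than by p, the 10 largest positive differences among genes above background on all 6 arrays came from Lyz1, Xist and 8 other genes, 8 of the 10 without overlap. They included Stfa1 and Cstdc4, which encode stefins, inhibitors of cysteine proteases. Stfa1 had levels of 9.24, 9.55 and 9.51 in old LysM-Cre, against 8.03, 8.85 and 7.84 in old SIRT1F/F, a difference of 1.19 ± 0.37 (SE, limma adjusted p = 0.736), and Cstdc4 differed by 1.14 ± 0.40. Both left a gap between the groups, and old SIRT1F/F 2 was the highest of its group for each. Mgst2, a glutathione transferase of leukotriene synthesis, had levels of 9.76, 9.18 and 9.32 in old LysM-Cre, against 8.83, 8.29 and 7.94 in old SIRT1F/F, a difference of 1.07 ± 0.30. Map3k6, a stress kinase, had levels of 7.93, 7.85 and 7.91 in old LysM-Cre, against 7.19, 6.89 and 6.52 in old SIRT1F/F, a difference of 1.03 ± 0.30. Lrg1 (1.08) and the neutrophil surface protein gene Cd177 (0.93) did not overlap either, while Serpinb2 (0.95), a plasminogen activator inhibitor, did. Ackr1, a chemokine-binding receptor of venules and erythroid cells, had 10.83 on old LysM-Cre 2, against 8.97 and 8.87 on the other old LysM-Cre arrays and 7.98 to 8.51 in old SIRT1F/F.

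The 10 largest negative differences among genes above background on all 6 arrays were of another kind, and 4 of the 10 had no overlap. On 9 of them old LysM-Cre 3, the array farthest out on the first principal component, was the lowest of the 6. Sppl2a, an intramembrane protease, had levels of 9.3, 9.55 and 8.66 in old LysM-Cre, against 9.85, 9.7 and 10.46 in old SIRT1F/F, a difference of -0.84 ± 0.27 (SE, limma adjusted p = 0.736). Elmo1, an adaptor of engulfment, had levels of 9.54, 9.6 and 8.25 in old LysM-Cre, against 9.64, 10.12 and 9.89 in old SIRT1F/F, a difference of -0.75 ± 0.31. Lrba (-0.87), Chd4 (-0.79), a chromatin remodeller, Rbm45 (-0.77), Etv1 (-0.77) and Rtn1 (-0.76) had their lowest level on the same array, and adjusted p was 0.736 to 0.825 for them. The largest negative difference of these 10 was that of Hba-a1, given above, which was highest on old SIRT1F/F 2 and 3.

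Interferon-stimulated genes leaned upward together, though none was called. Of 25 tested, 24 had a positive difference, with a median of 0.31. Over all tested probes 48.5% were positive, with a median of -0.01, and over all genes with 1 probe each 50.9%, with a median of 0.003. At an unadjusted limma p under 0.05 there were 12 of the 25 higher and 0 lower, and 11 had no overlap between the groups. Oas2, a sensor of double-stranded RNA that makes 2′-5′ oligoadenylate, had levels of 9.79, 9.77 and 9.64 in old LysM-Cre, against 9.01, 9.25 and 8.23 in old SIRT1F/F, a difference of 0.90 ± 0.29 (SE, limma adjusted p = 0.736). Every old LysM-Cre array lay above every old SIRT1F/F array, and old SIRT1F/F 3 was the lowest. The related genes Oasl1 and Oasl2 differed by 0.62 ± 0.21 and 0.63 ± 0.23, without overlap. Rsad2 (viperin), an antiviral enzyme, had levels of 10.09, 10.01 and 9.95 in old LysM-Cre, against 9.59, 9.71 and 9.24 in old SIRT1F/F, a difference of 0.50 ± 0.18. Its groups did not overlap. Isg15, a ubiquitin-like modifier, had levels of 10.53, 10.37 and 10.31 in old LysM-Cre, against 10.09, 10.15 and 9.84 in old SIRT1F/F, a difference of 0.38 ± 0.17. Ifit3, which binds foreign RNA with its relatives, had levels of 11.72, 11.76 and 11.63 in old LysM-Cre, against 11.54, 11.53 and 10.85 in old SIRT1F/F, a difference of 0.40 ± 0.18. The regulator Irf7 (0.56 ± 0.23) overlapped between the groups, and Usp18 (0.49 ± 0.19), which takes ISG15 off proteins, did not. Ifi35 was the 1 member with a negative difference (-0.12 ± 0.13).

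The lean rested partly on single arrays and on how Xist was treated. With Xist as a covariate the median was 0.24, 22 of the 25 were positive and 1 reached an unadjusted limma p under 0.05. Without old SIRT1F/F 3 there were 2 interferon-stimulated genes at an unadjusted p under 0.05 and the median was 0.21, without old LysM-Cre 1 there were 5 and without old LysM-Cre 2 there were 4, while 22 to 24 of the 25 stayed positive. Without old SIRT1F/F 2 and 3 the median was 0.25, 22 were positive and 0 reached an unadjusted p under 0.05. The summed intensity of the 20 neutrophil genes tested moved the same way as these genes, at 205210 to 226930 in old LysM-Cre, against 144350 to 190750 in old SIRT1F/F, and its part in the interferon list was not tested.

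Promoters of 3 of these genes are printed because the groups did not overlap for them and their promoters hold the core of the interferon-stimulated response element, the site read by the interferon-activated complex of STAT and IRF factors. The core was searched as GAAA, any 2 bases and GAAA again, on both strands, from 250 bases before to 50 bases after the start, and capitals mark the matches (RefSeq, GRCm38.p6). The windows are chr12:26456403-26456702 on the minus strand for Rsad2, chr4:156200769-156201068 on the minus strand for Isg15 and chr19:34583279-34583578 on the plus strand for Ifit3.
Rsad2: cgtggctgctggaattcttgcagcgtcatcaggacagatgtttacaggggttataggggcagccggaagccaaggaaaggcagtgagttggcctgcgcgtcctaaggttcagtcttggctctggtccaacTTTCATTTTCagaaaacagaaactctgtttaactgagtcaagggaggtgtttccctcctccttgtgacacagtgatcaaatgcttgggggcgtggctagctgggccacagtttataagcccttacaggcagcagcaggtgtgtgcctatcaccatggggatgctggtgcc
Isg15: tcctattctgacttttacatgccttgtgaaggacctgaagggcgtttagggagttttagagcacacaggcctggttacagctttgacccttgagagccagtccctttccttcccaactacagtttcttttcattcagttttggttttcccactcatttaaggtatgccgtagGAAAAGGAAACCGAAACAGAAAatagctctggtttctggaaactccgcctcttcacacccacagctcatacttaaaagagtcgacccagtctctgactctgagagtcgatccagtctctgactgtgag
Ifit3: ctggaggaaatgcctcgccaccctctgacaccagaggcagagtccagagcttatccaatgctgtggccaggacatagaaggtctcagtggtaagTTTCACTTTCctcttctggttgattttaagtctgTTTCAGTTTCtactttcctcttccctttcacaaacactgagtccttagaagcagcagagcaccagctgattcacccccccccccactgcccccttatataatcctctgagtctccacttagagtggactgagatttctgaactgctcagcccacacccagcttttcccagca
Isg15 held 3 overlapping matches, Ifit3 2 and Rsad2 1. A match was found in 10 of the 17 tested interferon-stimulated genes with a promoter in the table (58.8%), against 3.44% of all 32851 promoters of the same length and 3.88% of the tested genes with a promoter. Of the 10 with a match 5 reached an unadjusted p under 0.05, with a median difference of 0.26, and of the 7 without one 4 did, with a median of 0.36.

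**Figure D3:**
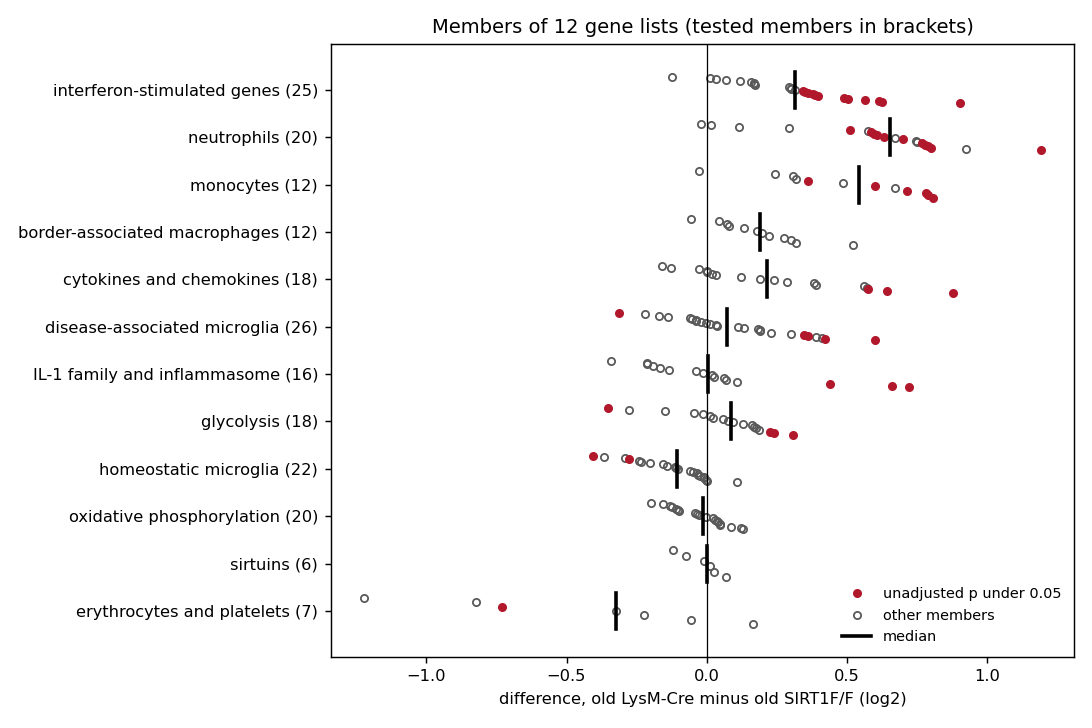
Difference between old LysM-Cre and old SIRT1F/F (x axis, log2) for the tested members of 12 gene lists (y axis, number of tested members in brackets). Points are genes, filled where the unadjusted limma p was under 0.05, and the vertical bars are medians. Interferon-stimulated, neutrophil and monocyte genes lie almost wholly above 0 (medians 0.31, 0.65 and 0.54), homeostatic microglia genes mostly below 0 (-0.11), and the sirtuins around 0.

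Genes of neutrophils and of monocytes leaned upward as well, with 0 called in either list. Of 20 neutrophil genes tested, 19 had a positive difference, with a median of 0.65, 11 reached an unadjusted limma p under 0.05 and 12 had no overlap. Beside Stfa1, Ifitm6, an interferon-induced type of transmembrane protein of marrow cells, had levels of 12.7, 12.4 and 12.45 in old LysM-Cre, against 11.73, 11.92 and 11.5 in old SIRT1F/F, a difference of 0.80 ± 0.29 (SE, limma adjusted p = 0.736). Mmp9, neutrophil gelatinase, had levels of 12.32, 12.16 and 12.41 in old LysM-Cre, against 11.26, 12 and 11.3 in old SIRT1F/F, a difference of 0.78 ± 0.29. The groups did not overlap for either, and old SIRT1F/F 2 came closest to old LysM-Cre. Mmp8, neutrophil collagenase, differed by 0.51 ± 0.20, S100a8 by 0.01 ± 0.09 and S100a9 by 0.12 ± 0.09. The last 2 genes were bright, and whether their differences are compressed was not tested. Of 12 monocyte genes tested, 11 had a positive difference, with a median of 0.54, 6 reached an unadjusted p under 0.05 and 9 had no overlap. Clec4e, a receptor for damaged cells and fungal or mycobacterial lipids, had levels of 10.23, 10.58 and 10.05 in old LysM-Cre, against 9.41, 9.93 and 9.15 in old SIRT1F/F, a difference of 0.79 ± 0.22. Treml4, found on a subset of monocytes and macrophages, had levels of 7.49, 7.81 and 7.8 in old LysM-Cre, against 6.58, 7.19 and 7.18 in old SIRT1F/F, a difference of 0.71 ± 0.20. Both had no overlap, as had F10 above and Lgals3 (galectin-3, 0.36 ± 0.15).

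All 20 neutrophil and all 12 monocyte genes tested were above background on at least 1 old array. The summed intensity of the monocyte genes was 54360 to 60520 in old LysM-Cre, against 34790 to 47920 in old SIRT1F/F. Counts at an unadjusted p under 0.05 were again sensitive to single arrays. For neutrophil genes they were 3 without old LysM-Cre 1, 3 without old LysM-Cre 3, 3 without old SIRT1F/F 1 and 2 without old SIRT1F/F 3, and for monocyte genes 3 without old LysM-Cre 1 and 3 without old SIRT1F/F 3. The medians stayed between 0.52 and 0.85 for neutrophil genes and between 0.38 and 0.62 for monocyte genes over the 20 alternative settings. Without old SIRT1F/F 2 and 3 they were 0.69 and 0.57, with 2 and 3 genes at an unadjusted p under 0.05. Whether these levels come from cells other than microglia was not tested.

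Homeostatic microglia genes leaned the other way, with 0 called. Of 22 tested, 20 had a negative difference, with a median of -0.11, 2 reached an unadjusted limma p under 0.05 and 8 had no overlap. Mef2c, a transcription factor of the microglial identity programme, had levels of 12.29, 12.2 and 12.13 in old LysM-Cre, against 12.46, 12.52 and 12.85 in old SIRT1F/F, a difference of -0.40 ± 0.12 (SE, limma adjusted p = 0.736). Cx3cr1 differed by -0.28 ± 0.10 (adjusted p = 0.736). Both left the groups apart, with old SIRT1F/F 3 the highest array. P2ry13 (-0.20 ± 0.09) and Tmem119 (-0.10 ± 0.09) had no overlap either, and P2ry12 (-0.24 ± 0.14) did. The summed intensity of the list was 395940 to 412220 in old LysM-Cre, against 415080 to 450560 in old SIRT1F/F. Without old SIRT1F/F 3 there was 1 gene at an unadjusted p under 0.05 and the median was -0.07, without old LysM-Cre 1 the median was -0.04, and without old SIRT1F/F 2 and 3 it was -0.05, with 16 negative and 0 at an unadjusted p under 0.05. The old LysM-Cre arrays, which had the lower sums here, had the higher sums of neutrophil and monocyte genes, and the part of that in the result was not tested.

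Genes raised in disease-associated microglia did not share a direction: of 26 tested, 16 were positive and 10 negative, with a median of 0.07, and 4 reached an unadjusted limma p under 0.05 higher and 1 lower. Apoe, the main lipid carrier of the brain, had levels of 14.57, 14.61 and 14.59 in old LysM-Cre, against 14.46, 14.16 and 14.11 in old SIRT1F/F, a difference of 0.35 ± 0.14 (SE, limma adjusted p = 0.736). Axl, a receptor for dying cells, had levels of 13.38, 13.07 and 13.34 in old LysM-Cre, against 13.04, 12.79 and 12.69 in old SIRT1F/F, a difference of 0.42 ± 0.17. Neither gene overlapped between the groups, and for both old SIRT1F/F 1 was the highest array of its group. Trem2, the lipid receptor on which the programme depends in mice, differed by -0.14 ± 0.08, without overlap, and the 1 member lower at an unadjusted p under 0.05 was Lyz2. Without old SIRT1F/F 3 there were 0 members higher at an unadjusted p under 0.05, without old SIRT1F/F 2 there was 1, and without old SIRT1F/F 1 there were 7.

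**Figure D4:**
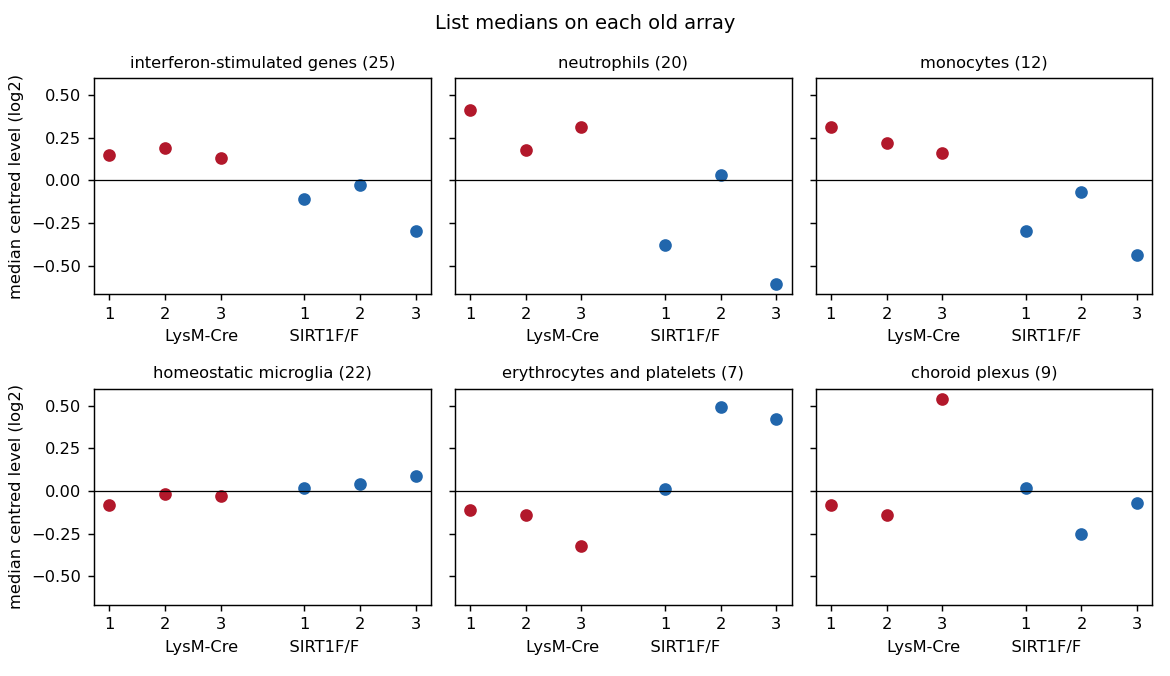
Median centred level (y axis, log2; the level of each gene minus its mean over the 6 old arrays, median over the list) on old LysM-Cre 1 to 3, left, and old SIRT1F/F 1 to 3, right, for 6 gene lists with the number of tested members in brackets. Neutrophil genes span 0.18 to 0.41 in old LysM-Cre, against -0.61 to 0.03 in old SIRT1F/F, erythrocyte and platelet genes are high on old SIRT1F/F 2 and 3 only, and choroid plexus genes on old LysM-Cre 3 only.

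Genes of the IL-1 family and the inflammasome were centred near 0 (16 tested, 8 positive, median 0.00), with 3 genes at an unadjusted limma p under 0.05, all higher. Il1r2, the decoy receptor for IL-1, had levels of 11.29, 10.85 and 10.99 in old LysM-Cre, against 10.23, 10.8 and 10.11 in old SIRT1F/F, a difference of 0.66 ± 0.24 (SE, limma adjusted p = 0.736). Il1rn, the IL-1 receptor antagonist, had levels of 9.03, 8.58 and 9.09 in old LysM-Cre, against 8.5, 8.42 and 8.46 in old SIRT1F/F, a difference of 0.44 ± 0.19. Mefv, which encodes the inflammasome protein pyrin, differed by 0.72 ± 0.24. All 3 left the groups apart, by a narrow margin for Il1r2 because old SIRT1F/F 2 was high. Il18 differed by -0.19 ± 0.12, without overlap. Il1r2, Il1rn and Mefv are also known from neutrophils, whose summed marker intensity, given above, was higher in the same samples, and its part in the result was not tested. Of the 16 genes 0 were at an unadjusted p under 0.05 without old SIRT1F/F 3.

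Of 18 cytokine and chemokine genes, 14 were positive (median 0.21), 3 reached an unadjusted limma p under 0.05 and 6 had no overlap. Beside Ccl24, Il10, the anti-inflammatory interleukin-10, had levels of 8.58, 8.59 and 8.61 in old LysM-Cre, against 7.97, 8.11 and 7.77 in old SIRT1F/F, a difference of 0.64 ± 0.24 (SE, limma adjusted p = 0.736). Cxcl1, a neutrophil attractant, had levels of 11.91, 12.74 and 12.33 in old LysM-Cre, against 11.63, 11.34 and 11.39 in old SIRT1F/F, a difference of 0.88 ± 0.34. Both had no overlap, whereas Ccl2, a monocyte attractant, did (0.57 ± 0.27). Without old SIRT1F/F 3 there was 1 cytokine gene at an unadjusted p under 0.05, and without old SIRT1F/F 2 and 3 the median was 0.15. With Xist as a covariate the median was 0.06, 11 of 18 were positive and 1 gene reached an unadjusted limma p under 0.05.

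Most other programmes were closer to the background. Of 18 glycolysis genes 13 were positive (median 0.09). All old LysM-Cre arrays lay above for 7 of the 18 and below for 1, against 797 and 643 of all 10986 genes. Pkm (pyruvate kinase, 0.31 ± 0.14), Aldoa (an aldolase, 0.24 ± 0.11) and Hk1 (hexokinase 1, 0.22 ± 0.10) were at an unadjusted limma p under 0.05 and without overlap. Aldoc, the brain aldolase, was at -0.35 ± 0.14. There were 0 glycolysis genes higher at an unadjusted p under 0.05 without old LysM-Cre 3, without old SIRT1F/F 1, without old SIRT1F/F 3, with median scaling or with no filter, and 1 without old SIRT1F/F 2. The 20 genes of oxidative phosphorylation had a median of -0.01 and 0 at an unadjusted p under 0.05. For NF-kB subunits and feedback genes (12 tested, median 0.01), MHC class I presentation (14, 0.03), MHC class II presentation (10, 0.03), lysosome (19, 0.03), complement and Fc receptors (14, 0.02) and the DNA methylation machinery (10, 0.06), 0 genes reached an unadjusted p under 0.05. Among these, H2-Ab1, an MHC class II chain, differed by 0.15 ± 0.14, Uhrf1, which guides methylation at replication, by 0.30 ± 0.18 and the methyltransferase gene Dnmt3b by 0.10 ± 0.09. In the NAD list (10 tested, median -0.02) Qprt, of NAD synthesis from quinolinate, differed by -0.38 ± 0.16, without overlap, and the NAD-consuming Bst1 by 0.52 ± 0.24. Cdkn2a, a senescence marker, was at -0.31 ± 0.11, the 1 of 13 p53 and senescence genes at an unadjusted p under 0.05. The circadian repressor Nfil3 had levels of 11.63, 11.66 and 11.65 in old LysM-Cre, against 11.28, 11.22 and 11.22 in old SIRT1F/F, a difference of 0.41 ± 0.14, with a wide gap for its spread. The chaperone gene Hsph1 differed by 0.83 ± 0.29, with 10.55 on old SIRT1F/F 1 against 11.87 to 12.46 on the other arrays. Arg2, mitochondrial arginase, differed by 0.70 ± 0.28 and Chil3, a chitinase-like lectin also made by neutrophils, by 0.67 ± 0.32, both without overlap.

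Markers of further cell types were looked at as whole lists. Border-associated macrophage genes had 11 of 12 positive (median 0.19) with 0 at an unadjusted limma p under 0.05. These genes had a median of 0.30 without old LysM-Cre 1, 0.13 without old LysM-Cre 3 and 0.12 without old SIRT1F/F 2 and 3. With Xist as a covariate these genes had a median of 0.08, with 8 of 12 positive. Their summed intensity was 42610 to 51410 in old LysM-Cre, against 37500 to 41480 in old SIRT1F/F, and Ms4a7 (0.30 ± 0.15), F13a1 (0.32 ± 0.18) and Mrc1 (0.22 ± 0.17) had no overlap. B cell genes had 9 of 11 positive (median 0.16) with 3 at an unadjusted p under 0.05: Vpreb3 (0.67 ± 0.25), Cd79a (0.35 ± 0.13), a chain of the B cell receptor, and the kinase gene Blk (0.43 ± 0.17). There were 0 B cell genes at an unadjusted p under 0.05 without old SIRT1F/F 3, as without old SIRT1F/F 2 and 3. Vpreb3 and Blk were each above background on 1 old LysM-Cre array and 0 old SIRT1F/F arrays. Both entered the test only through arrays with Cre, where they were high, so they add no support to the count. With the stricter filter 9 B cell genes were tested and 1 reached an unadjusted limma p under 0.05. The T and NK cell list (11 tested) had a median of 0.20, which was 0.03 without old SIRT1F/F 2, -0.01 with the stricter filter and -0.03 with Xist as a covariate. The neuron (9), astrocyte (13) and endothelium and mural cell (14) lists had medians of -0.02, -0.03 and 0.07, and leaving out 1 old array moved them over -0.16 to 0.03, -0.19 to 0.04 and 0.01 to 0.13, so no direction is given for these 4 lists. Choroid plexus genes were positive in 9 of 9 (median 0.13), with summed intensities of 41656, 40419 and 49485 in old LysM-Cre, against 42345, 40437 and 41417 in old SIRT1F/F, so that the high value was that of old LysM-Cre 3. Without that array 4 of 9 were positive and the median was -0.02. Erythrocyte and platelet genes had 6 of 7 negative (median -0.32), with summed intensities of 8644 to 9528 in old LysM-Cre, against 9358, 15843 and 16986 in old SIRT1F/F. Hbb-b2, a beta globin, had levels of 6.95, 7.03 and 7.06 in old LysM-Cre, against 7.02, 8.17 and 8.04 in old SIRT1F/F, so that old SIRT1F/F 1 lay among the old LysM-Cre arrays. The median of the list was -0.09 without old SIRT1F/F 2 and 3 and -0.19 without old LysM-Cre 3. Oligodendrocyte genes had 8 of 10 negative (median -0.20). That median was -0.08 without old SIRT1F/F 1, -0.10 without old LysM-Cre 3, -0.36 without old SIRT1F/F 2 and -0.52 without old SIRT1F/F 2 and 3. Of the 10 genes 3, with Mobp and Fa2h among them, were above background on no old array. Opalin, a myelin protein, differed by -0.80 ± 0.26 while it was above background on 0 old LysM-Cre arrays and 1 old SIRT1F/F array, and Olig1, a transcription factor of the lineage, by -0.47 ± 0.18.

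The genotype difference of the old samples was set beside that of the young and of the TAU samples, which share no array with it. No probe was called for a genotype difference in old samples unlike that in young ones, in either direction (0%), with 400 of 16344 at an unadjusted limma p under 0.05. For Lyz1 (ILMN_2736867) the levels were 12.06, 11.85 and 11.65 in young LysM-Cre, against 10.98, 9.51 and 8.94 in young SIRT1F/F, a difference of 2.04 ± 0.37, and 11.41 and 11.63 in TAU/LysM, against 7.45 and 7.61 in TAU, a difference of 3.98 ± 0.45. Lyz1 was above its counterpart on every Cre array in all 3 pairs, and the young SIRT1F/F arrays were the highest and most scattered of the arrays without Cre. The old minus young difference of this probe was 1.68 ± 0.52 (SE, limma adjusted p = 1) and the old minus TAU one -0.26 ± 0.58 (adjusted p = 0.998). Eif1ax differed by 0.80 ± 0.11 in old samples, 0.05 ± 0.11 in young and 0.30 ± 0.14 in TAU samples.

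The smaller leans can be set side by side in the same way. The interferon-stimulated genes had a median difference of 0.31 in old samples (24 of 25 positive), 0.10 in young (17 of 25) and 0.65 in TAU samples (25 of 25), and Rsad2 differed by 0.50 ± 0.18, -0.01 ± 0.18 and 0.91 ± 0.22. Of the 25 genes, 1 reached an unadjusted limma p under 0.05 for a difference of old from young, 5 for one of old from TAU, and none was called. Neutrophil genes had medians of 0.65, 0.65 and 0.79 and monocyte genes of 0.54, 0.42 and 0.66 in old, young and TAU samples, so the medians of both lists were positive in each. Homeostatic microglia genes had medians of -0.11, -0.05 and -0.19. Of the 12 genes of smallest p with a positive difference in old samples, 10 were positive in young and 10 in TAU samples. Of all probes higher in old samples at an unadjusted p under 0.05, 84.7% and 82.3% were, much the same share. Of all probes with a positive difference in old samples, 65.7% and 62.9% were. Of the 12 with a negative difference, 7 were negative in young and 5 in TAU samples. The shares were 81.0% and 65.4% of the probes lower at an unadjusted p under 0.05, and 66.6% and 57.8% of all lower probes. Hal, at -1.46 in old samples, differed by 0.51 in young and 0.28 in TAU samples.

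**Figure D5:**
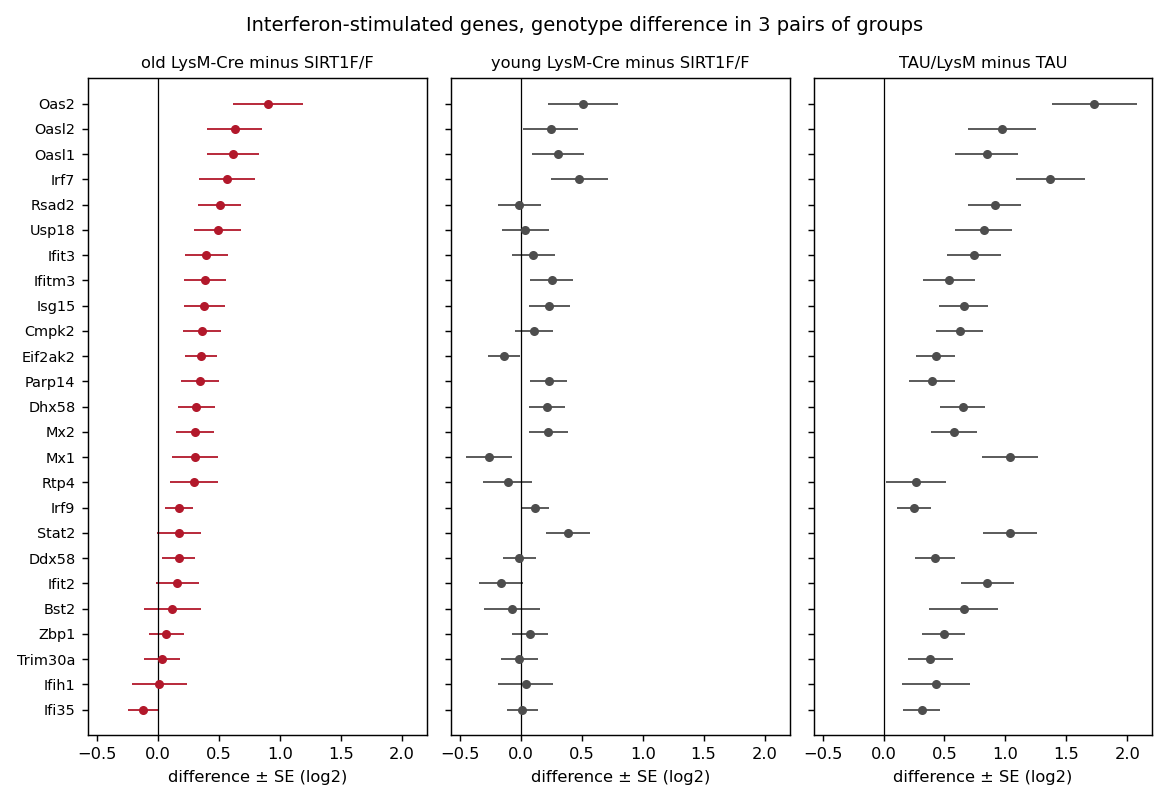
Genotype difference (x axes, log2, with SE) of the 25 tested interferon-stimulated genes (y axis, ordered by the old difference) in old LysM-Cre minus old SIRT1F/F (left, 3 arrays each), young LysM-Cre minus young SIRT1F/F (middle, 3 arrays each) and TAU/LysM minus TAU (right, 2 arrays each). In old samples 24 of 25 lie above 0, in young 17 and in TAU samples 25, with Oas2 farthest right in all 3 panels.

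The genotype difference of old samples was unlike that of TAU samples for 33 probes, 31 with a higher value in old (0.19%) and 2 with a lower one (0.0122%). They belonged to 31 genes or unnamed probes, and 8 of the 33 probes were for genes of the oligodendrocyte list. Mbp, myelin basic protein, differed by -0.53 ± 0.29 in old samples and by -4.62 ± 0.36 in TAU samples. Its levels were 11.5 and 11.99 in TAU, against 7.21 and 7.03 in TAU/LysM and 6.61 to 8.04 on the old and young arrays. The high values were thus those of the TAU arrays, and their cause was not tested. Car2, Fa2h, Prr18, Mobp and Olig1 followed, with old differences of -0.02, -0.19, -0.18, 0.14 and -0.47, against TAU differences of -2.45, -2.38, -3.11, -2.12 and -2.98, and the TAU differences were the larger in each. Fa2h and Mobp were above background on no old array, so their old differences are between background signals. This Mobp probe (ILMN_1223628) was above background only on the TAU arrays and entered the test through them. The oligodendrocyte list as a whole had a median of -0.20 in old and -2.58 in TAU samples. Other lists moved too, with medians in TAU samples of -2.07 for choroid plexus and -0.72 for astrocyte genes. Tln1, the integrin-binding protein talin 1, was one of the 2 called the other way, with -0.30 ± 0.10 in old and 0.59 ± 0.12 in TAU samples.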

How the data were processed

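RNA of CD11b-selected brain cells was measured on 16 one-colour Illumina bead arrays, 3 each of old and young LysM-Cre and SIRT1F/F mice and 2 each of TAU/LysM and TAU mice, grouped by the labels. The authors deposited non-normalized intensity values per probe, with no detection p-value used here, and a table of log2 values. The deposited log2 values equal log2 of the quantile-normalized deposited intensity to within 5e-09, without background correction, and each column has a median of 7.894. For scanner and software settings, the sources used here give nothing.

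Intensities were background-corrected with normexp (offset 16, all probes of an array), quantile-normalized and put on a log2 scale. A probe was above background where its log2 intensity exceeded the mode of its array by 1.645 SD, the SD taken from the values below the mode. Probes above background on at least 2 of 16 arrays were tested (16344 of 25697). Of all probes 23978 had 1 gene symbol, 0 several and 1719 none. On each array 54.9% to 57.5% of probes were above background, and the number of arrays limits the precision. All 16 arrays in 6 groups were fitted with limma 3.58.1 in R 4.3.3 (lmFit, eBayes, 10 residual and 3.68 prior degrees of freedom), with Benjamini-Hochberg adjustment over all tested probes. Adjusted p-values in the text are from this limma fit. An exact permutation test of 3 against 3 arrays cannot go below 0.1 and was not used. In a test on simulated data of the same size, with 200 of 16344 probes changed, 86% of changes of 1 log2 unit and 100% of changes of 2 were recovered, with 10 false calls. The simulated noise was normal and independent between probes, with no outlying array. These shares check the fit and do not say how many such changes would be found on the real arrays.

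A gene in a list is its probe of highest mean level, with 497 of 621 list entries tested. A summed intensity is the sum over a list's tested genes of the level taken out of log2. Named genes are the called probes, the 12 genes of smallest p and the 10 of largest difference in each direction, a fixed set (Sirt1, Il1b, Lyz1, Lyz2, Mapt, Xist, Eif2s3y and Eif1ax), the defining members and the up to 4 members of smallest p of each list, and, of the probes called for a difference between pairs, up to the 6 of smallest p in each direction. Isg15, Ifit3, Irf7, Usp18, Ifi35, S100a8, S100a9, Trem2, Itgam, Kcnmb4, Mdm1, Reep3 and Slc25a16 include genes outside that rule, which were chosen after their values were seen. The members and lists were chosen with earlier results of these data known. Alternatives varied the background correction, normalization, filter, arrays fitted, replicate block, variance model, array weights, probes per gene and Xist, and left out arrays, and the one without old SIRT1F/F 2 and 3 was added after seeing the data.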

Additional observations from a re-analysis of the deposited data

Results flagged for a closer look

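Of the 33 probes whose genotype difference in old samples was unlike that in TAU samples by a test of the difference itself (limma adjusted p under 0.05 over all 16344 probes), the 6 of smallest p among those with a higher value in old samples and the 2 with a lower one follow. The difference between the 2 pairs, old minus TAU, was 2.43 for Car2, 2.19 for Fa2h, 4.1 for Mbp, 2.94 for Prr18, 2.26 for Mobp (ILMN_1223628) and 2.51 for Olig1. It was -2.66 for ILMN_2599997, a probe with no gene name here, and -0.89 for Tln1. For Car2 the genotype difference was -0.02 in old and -2.45 in TAU samples, and for ILMN_2599997 it was -0.34 in old and 2.32 in TAU samples. Car2 had levels of 9.81 and 9.65 in TAU, against 7.0 to 7.68 on all other arrays. ILMN_2599997 had 7.04 and 7.86 in TAU, against 9.26 to 10.46 on all other arrays. Fa2h and Mobp (ILMN_1223628) were above background on no old array, and that Mobp probe entered the test only through the TAU arrays. No array of a group was tested for standing apart, since no group has 4 or more arrays.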

How the results depend on the processing

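The count of 3 called probes in old samples was 2 to 3 in 17 of the 20 alternatives, and 0 with 1 probe per gene (758 at an unadjusted limma p under 0.05), 0 without the 5 arrays that had Xist or Eif2s3y near background (541) and 0 without old SIRT1F/F 2 and 3 (523). With 1 probe per gene the Lyz1 probe kept is the brightest one, ILMN_2878071. Leaving out 1 old array gave 2 to 3. The replicate block gave 2. Deviations of same-numbered arrays correlated at 0.072, 0.048 and 0.047, against -0.068 to 0.012 for arrays of different numbers. With the block 1571 probes had an unadjusted p under 0.05, against 1078 in the main fit. The block was kept out because the labels do not say that numbers pair samples, and whether same-numbered arrays share a factor was not tested. Both Lyz1 probes were called in 17 of 19 alternatives (ILMN_2736867 2.97 to 4.06, adjusted p = 0.000211 to 0.733) and Eif1ax in 4 of 20 (0.26 to 0.85, adjusted p = 0.0176 to 1). The count for old minus young was 0 in every alternative run, with 281 to 990 probes at an unadjusted p under 0.05. The 33 calls for old minus TAU became 87 without background correction, 80 with a normexp offset of 50, 21 without a filter, 19 with the stricter filter, 135 with the replicate block, 95 with array weights, 16 with Xist as a covariate, 2 without the 5 arrays and 7 without old SIRT1F/F 2 and 3. Leaving out 1 old array gave 15 to 32, with 17 without old LysM-Cre 1, 18 without old LysM-Cre 3, 15 without old SIRT1F/F 2 and 17 without old SIRT1F/F 3. Differences that changed sign were those of Eif2s3y (1.071 with Xist as a covariate, 0.463 both without the 5 arrays and without old SIRT1F/F 2 and 3), Xist (0.00 and -0.385, and its second probe -0.501 and -0.425, in the same order), ILMN_2599997 (0.105 without those arrays), Mapt probe ILMN_3107817 (-0.067 with array weights, -0.072 with Xist as a covariate, -0.079 without those arrays, and -0.095 to 0.11 without 1 old array), Sirt1 (-0.024 to 0.154 without 1 old array, the lowest without old LysM-Cre 1), Car2 (-0.08 to 0.036 without 1 old array) and S100a8 (-0.033 with median scaling, -0.004 with array weights and -0.021 to 0.049 without 1 old array). The cause was not tested. Of 2432 gene values 2389 kept their direction and side of the threshold, and of 720 list medians 665 moved by less than the spread between arrays. Both shares are partly fixed in advance, so they do not measure support. No filter, the 6 old arrays alone, the replicate block, the variance model and 1 probe per gene leave a difference unchanged. The settings without the 5 arrays and without old SIRT1F/F 2 and 3 give the same old differences. Most of these genes were also not called in the main fit. High intensity, where compression was not tested, limits Il1b, Lyz2 and S100a8, and nearness to background limits Eif1ax and Mapt.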
